A study of Oncorhynchus mykiss with 9 samples.

Results

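The livers of rainbow trout held under acute hypoxia were compared with the livers of trout held under moderate hypoxia, by small-RNA sequencing of 3 libraries per group. All fish were wild type by genotype and the tissue was liver, per the labels. The study's design text gives 12 h for hypoxia in wording that can be read as the acute exposure alone. The 3 control livers, not exposed to hypoxia, carry values of the same entries. Control values are given beside both groups for some entries and not for all. The oxygen levels and the age of the fish are not stated, nor is it stated whether each library is a separate fish or a pool. The p-values therefore reflect the spread among libraries alone, which may be technical. The comparison asks which liver miRNAs differ between the exposures labelled acute and moderate hypoxia. Members were chosen by their abundance alone: of the 1413 miRNA entries listed for the 6 libraries, the 483 with a mean of at least 1 TPM (the deposited unit, reads of an entry scaled to all miRNA reads of its library) were described. Of these 483 entries, 274 have names of known miRNAs and 209 are predictions from the reads, and all of them hold 401 distinct sequences of 18 to 26 nt. The entries nearest to that limit averaged 0.978, 0.995 and 0.998 TPM just below it, all 3 predicted, and 1.02 (miR-320-y), 1.02 and 1.03 TPM just above it.

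MicroRNAs are short RNAs that are cut from hairpin precursors, loaded into Argonaute proteins and guided to messenger RNAs mainly by the bases of their seed, near the 5′ end, where pairing represses translation and shortens the life of the target. In mammals, cells short of oxygen stabilise the hypoxia-inducible factor, HIF, and miR-210 is the miRNA best known to be induced by it. The liver is dominated by miR-122, the hepatocyte miRNA, and holds miR-192, miR-194 and miR-215 beside miRNAs of its vessels, its stroma and the blood inside it. Fish red blood cells keep their nuclei, and the miR-144 and miR-451 cluster is the mark of that lineage across vertebrates. The file does not explain the final letter (x, y or z) of its miRNA names, which is kept here.

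The sequences of the miRNAs on which the comparison turns follow, 5′ to 3′ as the deposited file lists them (in DNA letters), with the seed, bases 2 to 8, in capitals. The hypoxia miRNA of mammals, the miRNA that leads the liver and the liver group around it come first.
miR-210-y: cTGTGCGTgtgacagcggcta
miR-210-z: cTGTGCGTgtgacagcggct
miR-210-x: aGCCACTGactaacgtacattg
miR-122-x: tGGAGTGTgacaatggtgttt
miR-192-x: aTGACCTAtgaattgacagcca
miR-215-x: aTGACCTAtgaattgacagccaa
miR-215-z: aTGACCTAtgaattgacagccat
miR-194-x: tGTAACAGcaactccatgtgga
Next are miRNAs of red blood cells, of the endothelium and of the miR-17-92 clusters.
miR-144-y: cTACAGTAtagatgatgtact
miR-451-x: tAACCGTTaccattactgagttt
miR-486-x: tCCTGTACtgagctgccccga
miR-126-y: tCGTACCGtgagtaataatgca
miR-106-z: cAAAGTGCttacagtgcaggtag
miR-19-y: tGTGCAAAtccatgcaaaact
miR-19-z: tTGTGCAAatctatgcaaaact
The last set holds the teleost miRNA with the largest rise, the Hox-cluster miRNA with the largest fall and 2 of the 3 entries of miR-30.
miR-459-x: tCAGTAACaaggattcatcctg
miR-10-x: tACCCTGTagatccggatttgt
miR-30-x: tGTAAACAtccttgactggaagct
miR-30-y: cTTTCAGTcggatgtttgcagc

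In this set miR-210-y and miR-210-z share their first 20 bases and their seed, and differ by a base at the 3′ end. The sequences of miR-192-x, miR-215-x and miR-215-z share their first 22 bases, so that the miR-215 entries are the miR-192-x sequence with 1 base more at its 3′ end. The rule that divided reads among such entries is not stated, so each is reported as the file counts it and the division is uncertain. The entry miR-17-x has the same sequence as miR-106-z, and 137 of the 483 entries share their sequence with another entry.

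The deposited values correspond to 8443328 to 11841128 reads per acute library, 11125145 to 16515715 per moderate library and 9075435 to 10346821 per control library. Over the tested entries, log2 values correlated at 0.986 to 0.991 among the acute libraries (Pearson, a description across entries, which are not independent), and at 0.973 to 0.989 among the moderate libraries. Moderate library 3 stood apart from moderate libraries 1 and 2: it correlated with the acute libraries at 0.967 to 0.975, where moderate libraries 1 and 2 correlated with them at 0.936 to 0.955. Its values also lay between those of moderate libraries 1 and 2 for 83 of the 94 entries of at least 100 TPM (88.3%), where acute library 3 lay between its partners for 66.0% and each of the other libraries for 4.26 to 41.5%. At those 94 entries the median coefficient of variation was 18.3% in the acute libraries, 7.63% in the moderate libraries and 25.6% in the control libraries. If moderate library 3 is not independent of the other 2, the spread within moderate hypoxia is too small and so are the p-values. Moderate libraries 1 and 2 in turn held miRNAs of a gene cluster imprinted in placental mammals: their 38 entries summed to 5.41, 4.03 and 3.76 TPM in the acute libraries, against 252, 307 and 3.94 TPM in the moderate libraries and 4.16, 3.02 and 4.52 TPM in the control libraries. Entries more than 4-fold above all other libraries of the 6 in both moderate libraries 1 and 2 numbered 118. Of these, 25 were tested, and 6 were called lower under acute hypoxia and 0 higher, beside 7.87% lower and 28.6% higher of all tested entries. Their direction follows from how these entries were chosen. The part of these reads in the other results was not tested; without those entries 188 of 458 were called.

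**Figure D1:**
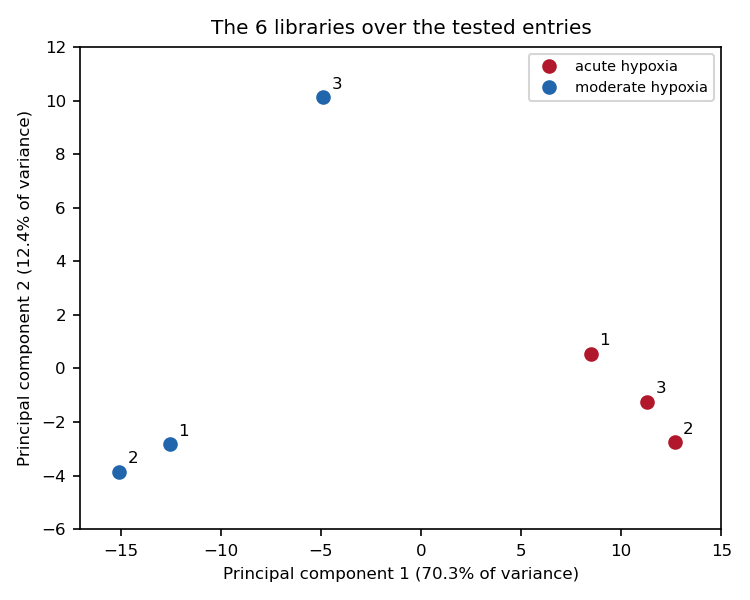
Positions of the 6 libraries on the first and second principal components of log2(TPM + 1) over the 483 entries, which hold 70.3% and 12.4% of the variance. The acute libraries lie at 8.47 to 12.7 on the first, moderate libraries 1 and 2 at −12.5 and −15.1, and moderate library 3 at −4.87 and apart on the second at 10.1.

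Acute and moderate hypoxia differed in 176 of the 483 tested entries, 36.4%, by limma on log2(TPM + 1) with Benjamini-Hochberg adjustment at 0.05, which is the test behind every adjusted p given here. Of these, 138 were higher under acute hypoxia (28.6% of those tested) and 38 were lower (7.87%), and 95 differed at least 2-fold on that scale (75 higher, 20 lower). They hold 152 distinct sequences, and in 172 of the 176 the 3 acute values did not overlap the 3 moderate values. Without regard to the test, the groups did not overlap in 258 entries (53.4%). At an unadjusted p of 0.05, 244 entries passed.

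The balance of rises and falls depended on how libraries were scaled to each other. The median log2 difference over all 483 entries was 0.32, while miR-122-x, the most abundant entry, had a log2 difference of −0.25. The trimmed mean of M values put that median at −0.018 and called 64 higher (13.3%) and 69 lower (14.3%). The median of ratios put it at 0.00092 with 65 higher (13.5%) and 70 lower (14.5%). Quantile normalization put it at 0.043 with 69 higher (14.3%) and 63 lower (13%), and TPM rescaled without miR-122-x at 0.14 with 85 higher (17.6%) and 49 lower (10.2%). Under all 4 of these scalings 92 of the 176 calls held, and 65 (51 higher, 14 lower) also held without each of the 6 libraries in turn. The number of calls was 105 (82 higher, 23 lower) without acute library 2, 106 (86, 20) without acute library 3, 107 (89, 18) without moderate library 1 and 107 (87, 20) without moderate library 2. Entries described below held under all 4 scalings and without each library unless a limit is given beside them.

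**Figure D2:**
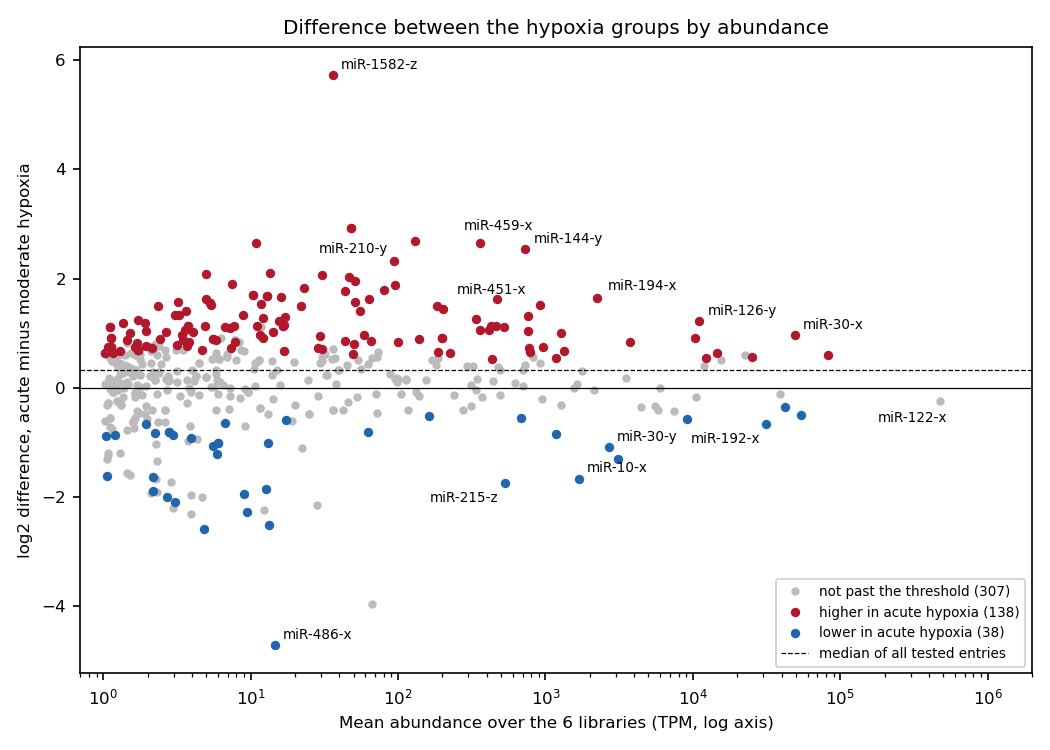
Log2 difference of acute minus moderate hypoxia (vertical axis) against the mean TPM over the 6 libraries (horizontal axis, log scale) for the 483 entries, with the entries past the threshold coloured by direction. The 138 higher and 38 lower calls spread over most of the range of abundance, with miR-122-x beyond them uncalled, and the median of all entries lies at 0.32.

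With moderate library 3 as the one moderate library, whose spread is then taken to be like that of the acute libraries, 16 entries passed (12 higher, 4 lower; 3.31% of those tested). The 12 were miR-210-y, miR-210-z, miR-144-y, miR-459-x, miR-106-z with miR-17-x, miR-1386-z, miR-7977-z, miR-1582-z, the predicted 19-nt entry aATCAGTGatgggataact and both entries of the predicted tCCCGGGTttcggcacca. The 4 that were lower were miR-486-x, miR-5108-z, miR-423-x and miR-222-z. All were named because they are in that count, which was made after their values were seen. Acute means of miR-486-x, miR-5108-z, miR-423-x and miR-222-z were 0.0661, 0, 0.409 and 0.411 TPM. These entries therefore reached the mean of 1 TPM through the moderate libraries. In turn miR-1582-z, without reads in the moderate libraries, reached it through the acute libraries. The direction of all of these follows from how the entries were chosen. Entry miR-222-z passed under all 4 other scalings but in 3 of the 6 fits that leave out 1 library. It had 0.422, 0.355 and 0.455 TPM in the acute libraries, against 1.35, 1.21 and 2.42 TPM in the moderate libraries.

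The miRNA best known for hypoxia, miR-210, was higher under acute than under moderate hypoxia in 2 of its 3 entries. Values of miR-210-y were 129.9, 195 and 148 TPM in the acute libraries, against 30.9, 31.3 and 28.7 TPM in the moderate libraries. Each acute library was higher than each moderate library, and the control libraries, at 178, 99.4 and 94.9 TPM, were also above every moderate one (log2 difference 2.32, SE 0.20, adjusted p = 0.000482). Its near-identical partner miR-210-z had 129.9, 161 and 157 TPM in the acute libraries, against 49.5, 32.9 and 38.02 TPM in the moderate libraries (log2 difference 1.89, SE 0.21, adjusted p = 0.000764). For miR-210-z the control libraries had 114, 114 and 109.5 TPM. The remaining entry, miR-210-x, which has another seed, had 116, 163 and 112 TPM in the acute libraries, against 139.9, 134 and 135 TPM in the moderate libraries, and its groups overlapped (log2 difference −0.08, SE 0.19, adjusted p = 0.766). Within each library the ratio of miR-210-y to miR-210-x, which no scaling between libraries can change, was 1.12, 1.20 and 1.32 in the acute libraries, against 0.221, 0.234 and 0.213 in the moderate libraries and 1.84, 1.02 and 0.658 in the control libraries (this and the other ratios are given without a test, since the pairs were chosen with their values known). With moderate library 3 alone, the log2 difference of miR-210-y was 2.40 (adjusted p = 0.0321).

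Over all 483 entries 28.6% were higher and 7.87% lower as deposited, and 13.3 to 17.6% were higher and 10.2 to 14.5% lower under the other scalings, which is the background of every list count that follows. Around miR-210 stands a list of 36 tested entries of miRNAs reported to respond to hypoxia in mammals. Of these, 15 were higher, 1 was lower (miR-199-y) and 20 did not pass (41.7% higher and 2.78% lower), with a median log2 difference of 0.55 beside 0.32 for all entries tested. Under the other scalings that median was 0.13 to 0.33 and the count 8 to 10 higher and 2 to 4 lower; without moderate library 1 it was 9 higher and none lower. The 7 that also held under all 4 scalings and every left-out library are the miR-210 pair above, miR-21-y and entries of miR-24, miR-103 and miR-107. The more abundant miR-21-x and miR-21-z were not called. The miR-103-z and miR-107-y entries have the same sequence, of a miRNA family best known in mammals for lowering insulin sensitivity of the liver. The abundant miR-181-x had 28073, 33515 and 27996 TPM in the acute libraries, against 18365, 22363 and 20027 TPM in the moderate libraries (log2 difference 0.56, SE 0.14, adjusted p = 0.0175), passed under none of the 4 other scalings and had an adjusted p of 0.0791 without moderate library 1 and 0.0566 without moderate library 3.

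The pair miR-462 and miR-731, encoded in 1 cluster in teleosts and known there as a hypoxia-responsive pair of zebrafish, had 1 call among its 5 tested entries. It was miR-731-y, and the median log2 difference was 0.00 (−0.42 to −0.11 under the other scalings). Under the other scalings none was higher, and 1 was lower under quantile normalization alone, miR-731-x. As deposited the acute and moderate sums of the pair overlapped. Under the trimmed mean of M values they were 1844, 1489 and 1525 (acute) against 2038, 2195 and 2220 (moderate), without overlap. Nor did they overlap under the median of ratios or without miR-122-x. Entry miR-731-y had 88.5, 54.5 and 50.2 TPM in the acute libraries, against 33.2, 36.1 and 36.8 TPM in the moderate libraries (log2 difference 0.80, SE 0.24, adjusted p = 0.0377). Although these groups did not overlap, it passed under none of the other scalings, and its adjusted p was 0.053 without acute library 2, 0.105 without moderate library 1, 0.077 without moderate library 2 and 0.0555 without moderate library 3. For miR-731-y the control libraries had 182, 89.2 and 90.6 TPM, above every acute and every moderate library. The most abundant of the pair, miR-462-x, had 1650.3, 1581 and 1486 TPM in the acute libraries, against 1524, 1597 and 1589 TPM in the moderate libraries (log2 difference 0.00, SE 0.13, adjusted p = 0.996), with groups that overlapped.

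Liver miRNAs divided. Of 21 tested entries of liver-enriched miRNAs 1 was higher and 4 were lower, with a median of 0.05 as deposited and −0.37 to −0.16 under the other scalings, where 1 was higher and 5 to 9 lower; without acute library 1 the count was 7 higher and 5 lower. The hepatocyte miRNA miR-122-x had 436063, 405699 and 460731 TPM in the acute libraries, against 525228, 504743 and 518378 TPM in the moderate libraries. For miR-122-x the control libraries had 307409, 459053 and 500523 TPM. All 3 acute values were below all 3 moderate values, but the difference did not pass (log2 difference −0.25, SE 0.10, adjusted p = 0.0733). It passed under 2 of the other scalings, the trimmed mean of M values and the median of ratios. The remaining scalings could not call it. Quantile normalization gives the top entry the same value in every library, and the scaling without miR-122-x leaves it out. This hepatocyte marker was the most abundant entry in each of the 9 libraries, as liver tissue has it.

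The sequence of miR-192-x, another miRNA of the liver list, had 28471, 21604 and 22979 TPM in the acute libraries, against 40215, 36412 and 38314 TPM in the moderate libraries. For miR-192-x the control libraries had 31381, 20626 and 24408 TPM. It was lower in each acute library than in each moderate one (log2 difference −0.66, SE 0.14, adjusted p = 0.00998). Entry miR-215-x had 858, 752 and 901 TPM in the acute libraries, against 1624, 1416 and 1473 TPM in the moderate libraries (log2 difference −0.85, SE 0.15, adjusted p = 0.00482), and miR-215-z had 183, 319 and 238 TPM in the acute libraries, against 801, 825 and 798 TPM in the moderate libraries (log2 difference −1.74, SE 0.21, adjusted p = 0.00115). For miR-215-z the control libraries had 148, 226 and 185 TPM. All 3 entries share the seed TGACCTA and all 3 fell, with a median of −0.85. As a share, miR-215-z was 0.644, 1.48 and 1.04% of miR-192-x in the acute libraries, against 1.99, 2.26 and 2.08% in the moderate libraries.

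In the opposite direction moved miR-194-x, which in vertebrates is made from the same precursor transcripts as miR-192 or miR-215. It had 2879.8, 4067 and 3249 TPM in the acute libraries, against 1094, 1059 and 1089 TPM in the moderate libraries. For miR-194-x the control libraries had 2880.2, 2801 and 2259.6 TPM. Every acute value was above every moderate value (log2 difference 1.64, SE 0.16, adjusted p = 0.000705). The ratio of miR-194-x to miR-192-x within a library was 0.101, 0.188 and 0.141 in the acute libraries, against 0.0272, 0.0291 and 0.0284 in the moderate libraries and 0.0918, 0.136 and 0.0926 in the control libraries. Also in the liver list and more abundant than these, miR-22-y had 36212, 51827 and 47849 TPM in the acute libraries, against 65234, 61066 and 63671 TPM in the moderate libraries (log2 difference −0.50, SE 0.15, adjusted p = 0.0391); it passed under all 4 other scalings, with an adjusted p of 0.0812 without acute library 3, 0.116 without moderate library 1, 0.0846 without moderate library 2 and 0.0888 without moderate library 3.

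Of the 5 tested entries of red blood cell miRNAs, 3 were higher, 1 was lower and 1 did not pass (2 to 3 higher and 1 lower under the other scalings). From the cluster that marks this lineage, miR-144-y had 1198, 1619 and 936 TPM in the acute libraries, against 258, 158 and 221 TPM in the moderate libraries (log2 difference 2.55, SE 0.26, adjusted p = 0.000705). For miR-144-y the control libraries had 1699.6, 1091 and 530.2 TPM. Its neighbour miR-451-x, which is cut by Argonaute itself and not by Dicer, had 1535, 1395 and 1142 TPM in the acute libraries, against 496, 450.2 and 460.3 TPM in the moderate libraries (log2 difference 1.52, SE 0.16, adjusted p = 0.000705). For miR-451-x the control libraries had 1723, 1549 and 1361 TPM. Both were higher in each acute library than in each moderate one, and the control libraries, too, were above every moderate library. The ratio of miR-451-x to miR-144-y was 1.28, 0.862 and 1.22 in the acute libraries, against 1.92, 2.85 and 2.08 in the moderate libraries and 1.01, 1.42 and 2.57 in the control libraries. Entry miR-144-x had 52.8, 71.1 and 47.1 TPM in the acute libraries, against 31.1, 31.5 and 29.4 TPM in the moderate libraries (log2 difference 0.85, SE 0.20, adjusted p = 0.0175) and passed under 1 of the 4 other scalings. In bulk liver, more blood or more miRNA per red blood cell cannot be told apart.

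Another miRNA of that lineage in mammals, miR-486, went the other way. Values of miR-486-x were 0.0845, 0 and 0.114 TPM in the acute libraries, against 41.7, 15.9 and 29.2 TPM in the moderate libraries (log2 difference −4.71, SE 0.34, adjusted p = 0.000234). For miR-486-x the control libraries had 0.193, 0 and 0.110 TPM. These are 2 reads over the acute libraries, against 1184 reads over the moderate libraries, per read sequenced 405-fold lower under acute hypoxia with a 95% exact interval of 112 to 3346 that covers counting error only. Through the moderate libraries alone miR-486-x reached the mean of 1 TPM, so its direction follows from that choice. The entry was present in moderate library 3 as in moderate libraries 1 and 2, and nearly without reads in all 6 other libraries. Its values were thus low in the libraries where miR-144-y and miR-451-x were high.

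**Figure D3:**
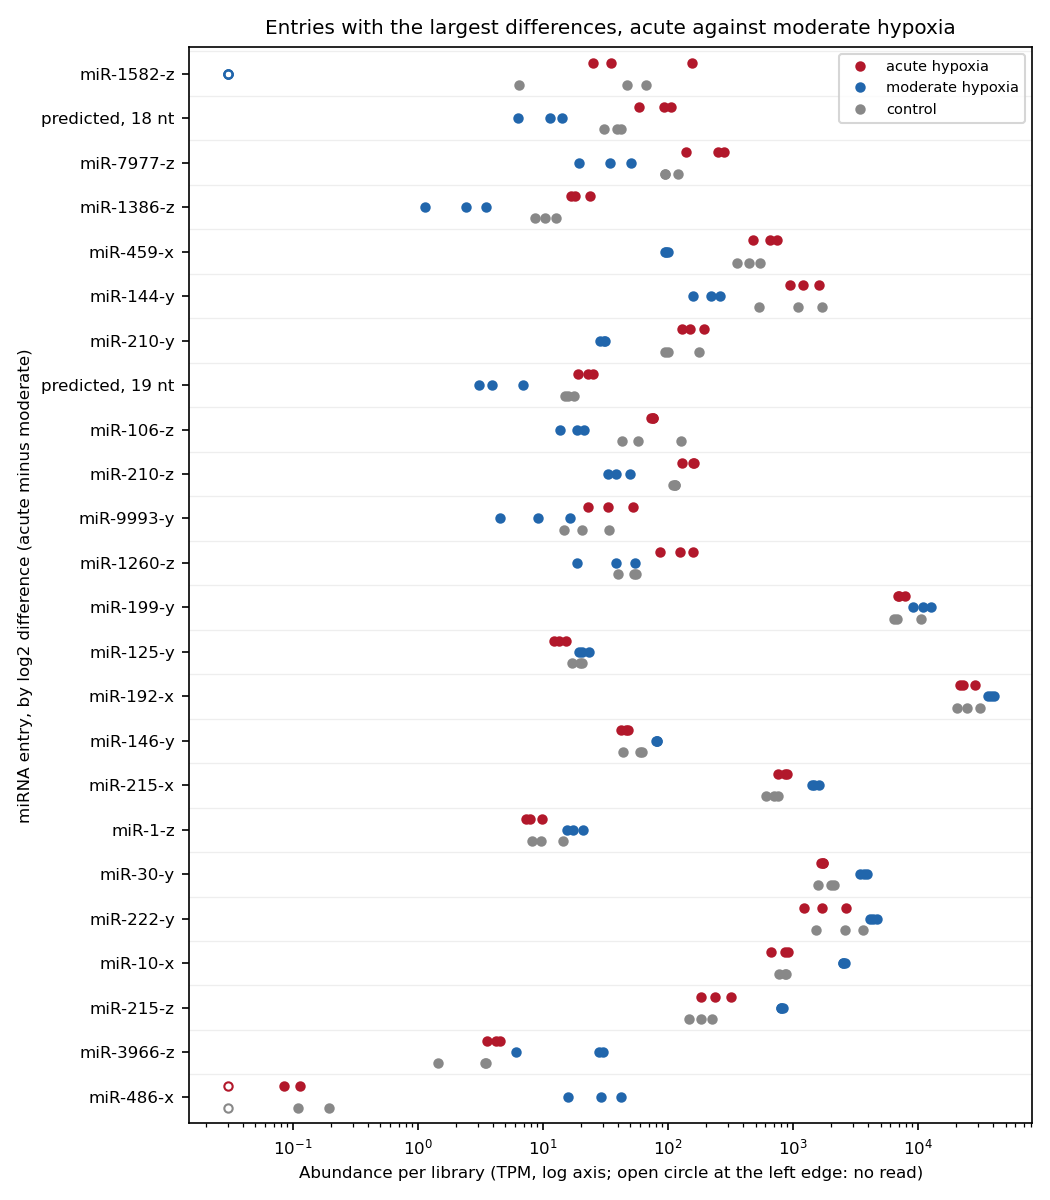
TPM per library (horizontal axis, log scale) of the entries with the largest differences among those of at least 10 TPM, from the largest rise at the top to the largest fall at the bottom, with 1 point for each of 3 acute, 3 moderate and 3 control libraries and open circles for no read. For miR-210-y, miR-459-x and miR-144-y the moderate points lie below all acute and control points.

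The miR-17-92 clusters, which promote the cell cycle in mammals, had 17 tested entries, of which 7 were higher, none was lower and 10 did not pass (41.2% higher and 0% lower, beside 28.6% and 7.87% of all entries). The median was 0.52 as deposited and 0.13 to 0.32 under the other scalings, where 5 to 6 higher and 0 to 1 lower passed. The largest rise was that of miR-106-z, with 75.1, 75.9 and 73.4 TPM in the acute libraries, against 13.8, 21.3 and 18.6 TPM in the moderate libraries (log2 difference 2.03, SE 0.21, adjusted p = 0.000705). For miR-106-z the control libraries had 127, 57.7 and 42.9 TPM. Under the name miR-17-x the same sequence had 80.1, 85.6 and 79.3 TPM in the acute libraries, against 16.1, 24.9 and 21.2 TPM in the moderate libraries. Entry miR-19-y had 817, 1525 and 920.0 TPM in the acute libraries, against 374, 482 and 419 TPM in the moderate libraries (log2 difference 1.30, SE 0.25, adjusted p = 0.00737), and miR-19-z had 529, 1053 and 556 TPM in the acute libraries, against 198, 246 and 217 TPM in the moderate libraries (log2 difference 1.62, SE 0.27, adjusted p = 0.00451). In all of these the 3 acute values were above the 3 moderate values. The rise was uneven across the clusters. The seed ATTGCAC is held by 4 entries, of miR-25 and miR-92 and of miR-235, which shares the seed only. These had log2 differences of −0.43 to 0.33 and none passed, while 2 of the 4 sequences with the seed AAAGTGC passed.

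Among miRNAs tied to glucose and lipid metabolism, 11 of 21 tested entries were higher and none was lower, with a median of 0.66 as deposited (52.4% higher and 0% lower, beside 28.6% and 7.87% of all entries). That split depended on the scaling: under the other scalings 4 to 7 higher and 2 to 3 lower passed, with medians of 0.14 to 0.44. It was 7 higher and none lower without acute library 3, and 8 higher and 3 lower without moderate library 3; 4 of the 11 held under all scalings and left-out libraries. One sequence under the names miR-103-z and miR-107-y, a family that lowers insulin sensitivity in mouse liver, had 489, 759.8 and 657 TPM in the acute libraries, against 251, 322 and 289 TPM in the moderate libraries as miR-103-z (log2 difference 1.13, SE 0.20, adjusted p = 0.00577). Entry miR-33-x, whose family lies in the introns of the SREBP genes and represses cholesterol export in mammals, had 13.8, 23.9 and 16.4 TPM in the acute libraries, against 6.56, 4.64 and 5.09 TPM in the moderate libraries (log2 difference 1.54, SE 0.26, adjusted p = 0.00432). For miR-33-x the control libraries had 15.9, 12.4 and 4.63 TPM. It is named because it is among those 4, after its values were seen, as is miR-130-y with 241, 364 and 291 TPM in the acute libraries, against 113, 102 and 107 TPM in the moderate libraries (log2 difference 1.45, SE 0.19, adjusted p = 0.00181). The abundant miR-143-y had 14414, 19419 and 19383 TPM in the acute libraries, against 12012, 10439.6 and 11334 TPM in the moderate libraries (log2 difference 0.64, SE 0.16, adjusted p = 0.0175), passed under none of the other scalings, and had an adjusted p of 0.0699 without acute library 3 and 0.0618 without moderate library 2.

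The group of miR-23, miR-27 and miR-24, transcribed together in vertebrates and abundant in vessels, had 5 of 9 tested entries higher and none lower as deposited (55.6% higher and 0% lower, beside 28.6% and 7.87% of all entries; median 0.66). Under the other scalings 3 to 5 higher and 1 to 2 lower passed, with medians of 0.20 to 0.43. Entry miR-27-y, which represses lipid genes in mammals, had 4408, 4799 and 5215 TPM in the acute libraries, against 2970.3, 2617 and 2522 TPM in the moderate libraries (log2 difference 0.83, SE 0.14, adjusted p = 0.00433) and passed under 3 of the 4 other scalings. For miR-27-y the control libraries had 6336, 4667 and 4214 TPM. Entry miR-24-y had 550.1, 431 and 487 TPM in the acute libraries, against 265, 217 and 219.9 TPM in the moderate libraries (log2 difference 1.06, SE 0.17, adjusted p = 0.00398), likewise 3 of 4. The 2 that held under all settings of this kind were miR-24-x and miR-24-z, at means of 24.7 and 25.0 TPM under acute hypoxia, against 9.57 and 7.21 TPM under moderate hypoxia.

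The 2 abundant entries of miR-30, a family expressed in many vertebrate organs, liver included, moved in opposite directions. Entry miR-30-x had 50815, 84969.7 and 60695 TPM in the acute libraries, against 32762, 33136 and 32801 TPM in the moderate libraries (log2 difference 0.96, SE 0.19, adjusted p = 0.00780). For miR-30-x the control libraries had 48839.8, 58259 and 35843 TPM. Entry miR-30-y had 1666, 1746 and 1745 TPM in the acute libraries, against 3885, 3414 and 3695 TPM in the moderate libraries (log2 difference −1.09, SE 0.13, adjusted p = 0.00096). For miR-30-y the control libraries had 2110.3, 2021 and 1570.5 TPM. The ratio of miR-30-x to miR-30-y was 30.5, 48.7 and 34.8 in the acute libraries, against 8.43, 9.70 and 8.88 in the moderate libraries and 23.1, 28.8 and 22.8 in the control libraries. Such opposite calls under 1 miRNA number occurred for 3 more: the ratio of the x to the y entry was 290.0, 353 and 317 for miR-146 in the acute libraries, against 123, 121 and 125 in the moderate libraries. For miR-125 it was 1119, 1025 and 817 in the acute libraries, against 283, 382 and 355 in the moderate libraries. For miR-199 it was 12.4, 14.7 and 13.97 in the acute libraries, against 4.71, 7.97 and 6.02 in the moderate libraries. These 4 numbers were picked because their x entry was called higher and their y entry lower, so the direction of the ratios follows from the choice. Of the 6 entries behind the last 3 numbers, miR-146-y held throughout (log2 difference −0.81, SE 0.16, adjusted p = 0.00820) and the other 5 did not.

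The group of miR-10, which lies in the Hox gene clusters, with miR-99, miR-100 and miR-125 held 11 tested entries, of which 3 were higher, 3 were lower and 5 did not pass. The count was 1 to 2 higher and 3 to 4 lower under the other scalings, and 1 was lower without acute library 3, moderate library 1 or moderate library 2. Entry miR-10-x had 662, 914 and 854 TPM in the acute libraries, against 2514, 2621 and 2525 TPM in the moderate libraries (log2 difference −1.67, SE 0.16, adjusted p = 0.000705). For miR-10-x the control libraries had 867, 874 and 774 TPM. Each moderate library was above each acute and each control library. Against it, miR-99-z had 613, 555 and 500.0 TPM in the acute libraries, against 245, 309 and 244 TPM in the moderate libraries (log2 difference 1.06, SE 0.17, adjusted p = 0.00398), and miR-125-x had 17201, 12509.9 and 10877 TPM in the acute libraries, against 6534, 7747 and 6914 TPM in the moderate libraries (log2 difference 0.91, SE 0.19, adjusted p = 0.00883, and past the threshold under 2 of the 4 other scalings). The control libraries had 1052, 659 and 507 TPM of miR-99-z and 13216, 14255 and 14060 TPM of miR-125-x. Of the 4 let-7 entries, a family that holds back growth and the embryonic programme, none was higher and 2 were lower, with a median of −0.42 (−0.82 to −0.58 under the other scalings, with 0 higher and 2 to 3 lower); 1 was lower without acute library 2 and none without acute library 3 or any 1 of the moderate libraries. The leading one, let-7-x, had 38134, 36736 and 35209 TPM in the acute libraries, against 46609.9, 47673 and 46843 TPM in the moderate libraries (log2 difference −0.36, SE 0.11, adjusted p = 0.0349); its adjusted p was 0.053 without acute library 2, 0.0988 without acute library 3, 0.116 without moderate library 1, 0.12 without moderate library 2 and 0.17 without moderate library 3.

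The teleost-specific list held 17 tested entries, of which 6 were higher, 1 was lower and 10 did not pass (35.3% higher and 5.88% lower, near the 28.6% and 7.87% of all entries). The median was 0.25 as deposited and −0.07 to 0.14 under the other scalings, where 2 to 4 higher and 1 to 2 lower passed. The largest rise among entries named for teleost miRNAs was that of miR-459-x, with 479, 747 and 653 TPM in the acute libraries, against 94.7, 99.4 and 96.1 TPM in the moderate libraries. For miR-459-x the control libraries had 441, 544 and 357 TPM. Every acute value was above every moderate value (log2 difference 2.66, SE 0.20, adjusted p = 0.000234), and with moderate library 3 alone the log2 difference was 2.67 (adjusted p = 0.0321). Its other entry, miR-459-y, had 67.6, 54.4 and 85.3 TPM in the acute libraries, against 74.2, 73.9 and 72.7 TPM in the moderate libraries (log2 difference −0.11, SE 0.20, adjusted p = 0.691), so that the ratio of miR-459-x to miR-459-y was 7.08, 13.7 and 7.66 in the acute libraries, against 1.28, 1.35 and 1.32 in the moderate libraries and 4.12, 9.02 and 5.27 in the control libraries. Entry miR-722-y had 1619, 2004 and 1450.2 TPM in the acute libraries, against 866, 817 and 834 TPM in the moderate libraries (log2 difference 0.998, SE 0.16, adjusted p = 0.00402). Entry miR-724-x, the one that fell, had 3.63, 3.08 and 2.73 TPM in the acute libraries, against 10.9, 7.26 and 7.99 TPM in the moderate libraries (log2 difference −1.21, SE 0.23, adjusted p = 0.00671).

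Of the markers of other cells in the liver, both entries of miR-126, the endothelial miRNA that sustains vessel integrity, were higher: miR-126-y had 12589, 18441 and 15433 TPM in the acute libraries, against 6195, 6906 and 6593 TPM in the moderate libraries (log2 difference 1.22, SE 0.16, adjusted p = 0.00181). For miR-126-y the control libraries had 15449, 12367 and 11407 TPM. Over both entries the sum was 13401, 19699.7 and 16458 TPM in the acute libraries, against 6719, 7379 and 7080.4 TPM in the moderate libraries and 16161, 13208 and 11982 TPM in the control libraries. Of 8 leukocyte entries 3 were higher and 2 lower as deposited, with 0 to 1 higher and 2 lower under the other scalings and 1 higher and 1 lower without acute library 2 or 3 or any 1 moderate library, and their sum was 13291, 18441 and 15895 TPM in the acute libraries, against 10965, 10702 and 10809.5 TPM in the moderate libraries and 21396, 14977 and 16058 TPM in the control libraries. Of 10 entries of stroma and smooth muscle 4 were higher and 1 was lower as deposited, and 0 to 2 higher and 1 to 2 lower under the other scalings, with 2 higher and none lower without acute library 3 (median 0.15, and −0.26 to −0.07 under the other scalings). Their sum was 110191, 143891 and 124785 TPM in the acute libraries, against 84959.6, 93953 and 89472 TPM in the moderate libraries and 108443, 122272 and 86028 TPM in the control libraries. Red blood cell miRNAs summed to 2855, 3122 and 2156 TPM in the acute libraries, against 872, 679 and 775 TPM in the moderate libraries and 3512, 2777 and 2017 TPM in the control libraries. As deposited the acute and moderate sums did not overlap in these 4 lists. Under the trimmed mean of M values and the median of ratios the sums of the leukocyte and stroma lists overlapped, and those of the endothelium and red blood cell lists did not. Rescaled without miR-122-x, the acute and moderate sums did not overlap in any of the 4 lists. Most of the leukocyte sum was miR-146-x, at 12268, 16831 and 14706 TPM (acute) and 9986, 9804 and 9890 TPM (moderate). Most of the stroma sum was miR-199-x. Both entries passed as deposited and under none of the other scalings. Whether cell composition has a part in the differences of other entries was not tested.

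The list of epithelium (bile duct and gut) and lists of tissues outside the liver showed small numbers of calls. Epithelium had 2 higher and none lower of 9, and neither call held under another scaling. Striated muscle had 2 lower and none higher of 5, with 1 lower in 5 of the 6 fits that leave out a library, and its sum was 58.6, 74.6 and 39.4 TPM in the acute libraries, against 51.7, 55.8 and 52.7 TPM in the moderate libraries and 77.3, 60.99 and 51.6 TPM in the control libraries. Nervous tissue had 1 higher and 1 lower of 9 as deposited, 0 higher and 1 to 2 lower under the other scalings, and 1 higher and 5 lower without moderate library 3. Pancreas had none of 5, and 1 lower under each other scaling. Entry miR-1-z, the muscle miRNA, had 7.35, 9.83 and 7.86 TPM in the acute libraries, against 15.6, 20.8 and 17.4 TPM in the moderate libraries (log2 difference −1.02, SE 0.21, adjusted p = 0.00953). The pair miR-221 and miR-222 had 2 lower and none higher of 6, and 2 to 3 lower under the other scalings. Leaving out 1 library gave 0 to 1 higher and 1 to 3 lower. Entry miR-222-y had 2653, 1213 and 1707 TPM in the acute libraries, against 4122, 4647 and 4372 TPM in the moderate libraries (log2 difference −1.31, SE 0.26, adjusted p = 0.00883), past the threshold under 3 of the 4 other scalings. For miR-222-y the control libraries had 1523, 2620 and 3646 TPM. The other was miR-222-z, which reached the mean of 1 TPM through the moderate libraries, so its direction follows from how entries were chosen. Of the smaller families, miR-29 had 2 higher of 3, miR-181 had 2 higher of 3, miR-15/16 had 1 higher of 6 and miR-26 none of 3. None of these 5 calls held under any of the 4 other scalings. The sensory-organ cluster that miR-182 belongs to had 1 lower of 3, miR-182-x, with 0.929, 0.474 and 0.228 TPM in the acute libraries, against 5.12, 3.97 and 2.42 TPM in the moderate libraries (log2 difference −1.63, SE 0.29, adjusted p = 0.00560). That entry reached the mean of 1 TPM through the moderate libraries, so its direction follows from how entries were chosen.

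**Figure D4:**
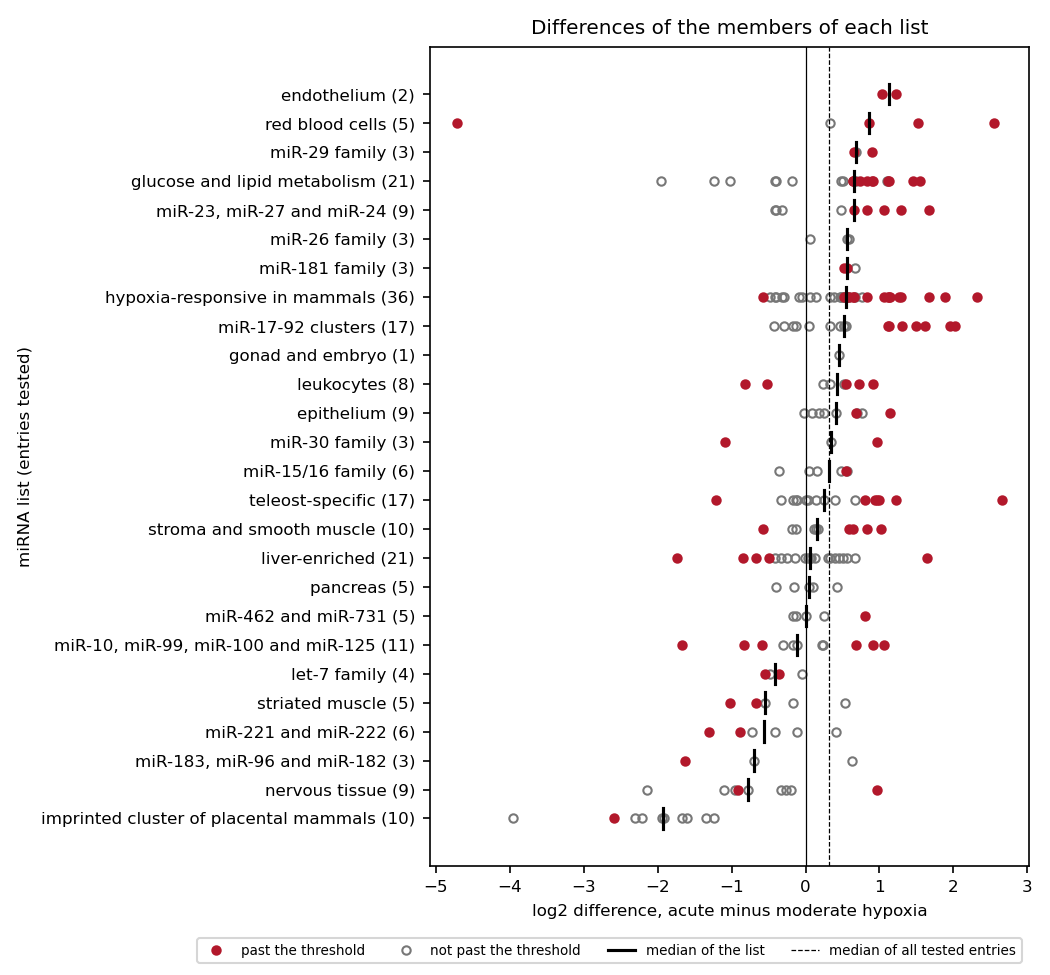
Log2 difference of acute minus moderate hypoxia (horizontal axis) of each tested entry of 26 lists of miRNAs, 1 list per row with its number of tested entries, filled points for entries past the threshold and a bar for the median of the list. The medians run from 1.13 for the endothelium to −1.93 for the imprinted cluster, beside a dashed line at 0.32 for all tested entries.

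A group of short entries stood among the rises. Of the 25 tested entries of 18 and 19 nt, 19 were higher under acute hypoxia and 1 was lower, with a median log2 difference of 1.70 (1.34 to 1.51 under the other scalings, with 13 higher and 1 or 2 lower under each), where the 458 longer entries had 119 higher and 37 lower and a median of 0.28. A shared feature, found after these values were seen, is their 3′ end. Of the 25 short entries 15 end in the letters CCA, read on the listed strand only (60% of them, against 2.18% of the tested entries of 20 nt or more), and all 15 of these were called higher, with a median of 1.79; of the other 10, 4 were higher and 1 was lower. Of the 10 tested entries of 20 nt or more that end in CCA, 1 was higher and 2 were lower, with a median of 0.24. The 15 short entries that end in CCA hold 12 distinct sequences, so some sequences are counted more than once. Of the 15, 9 passed under each of the other scalings, 8 without acute library 2 and 7 without acute library 3. As background, CCA is the 3′ end that every mature tRNA carries, added after transcription. No match of these entries to tRNA genes was made, and 3 letters are a description of the sequences and not a source. Not all of the 12 sequences are listed here: miR-4454-z, miR-2478-z and further predicted sequences are left out. Of the 15 entries miR-2478-z had the smallest rise (log2 difference 1.12), with means of 587 TPM (acute) and 270 TPM (moderate). Some of the 12 follow with the 3 letters in capitals, a predicted one without a name and the others under the names of the file.
predicted, 2 entries: tcccgggtttcggcaCCA
miR-7977-z: ttcccggccaatgcaCCA
miR-1386-z: ctcctggctagctcgCCA
miR-2779-z and miR-7550-z: atccggctcgaaggaCCA
miR-9995-y: atctcggtagaacctCCA
miR-9993-y: atctcggtaggacctCCA
miR-1260-z: atcccaccgctgtcaCCA
miR-10926-z: atctcagcggagcctCCA

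The sum over the 21 entries of 18 and 19 nt that end in CCA was 1063, 1471 and 1968 TPM in the acute libraries, against 656, 292 and 488 TPM in the moderate libraries and 785, 829 and 849 TPM in the control libraries. The acute libraries were the highest of the 9. Over the 49 entries of those lengths with another end the sum was 658, 413 and 752 TPM in the acute libraries, against 743, 364 and 586 TPM in the moderate libraries and 557, 484 and 697 TPM in the control libraries, and there the groups overlapped. Entry miR-7977-z had 140.3, 252 and 279 TPM in the acute libraries, against 50.5, 19.3 and 34.5 TPM in the moderate libraries (log2 difference 2.69, SE 0.39, adjusted p = 0.00269). For miR-7977-z the control libraries had 94.1, 121 and 94.7 TPM. The predicted tcccgggtttcggcaCCA had 58.4, 93.4 and 106 TPM in the acute libraries, against 14.1, 6.32 and 11.3 TPM in the moderate libraries (log2 difference 2.93, SE 0.33, adjusted p = 0.000805). The control libraries had 41.8, 38.8 and 30.6 TPM. Entry miR-1386-z had 16.6, 18.002 and 23.9 TPM in the acute libraries, against 3.51, 1.14 and 2.42 TPM in the moderate libraries (log2 difference 2.66, SE 0.31, adjusted p = 0.00087). In each the 3 acute values were above the 3 moderate values. Entry miR-1260-z had 86.5, 124 and 159 TPM in the acute libraries, against 54.1, 18.8 and 37.96 TPM in the moderate libraries (log2 difference 1.79, SE 0.39, adjusted p = 0.0112), with an adjusted p of 0.0572 without acute library 3, and miR-9993-y had 22.9, 33.2 and 52.1 TPM in the acute libraries, against 16.5, 4.50 and 9.02 TPM in the moderate libraries (log2 difference 1.83, SE 0.45, adjusted p = 0.0187), with 0.0533 without acute library 2 and 0.0798 without acute library 3 and a pass under 3 of the 4 other scalings. Moderate library 2 was the lowest of the 3 moderate libraries in all 5 of these.

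Outside the CCA group the largest rise of all was a 19-nt entry, miR-1582-z, with the sequence aAAGAGAGccagaacacag. It had 34.7, 25.2 and 156 TPM in the acute libraries, against 0, 0 and 0 TPM in the moderate libraries. For miR-1582-z the control libraries had 6.38, 65.96 and 46.8 TPM. These are 1995 reads over the acute libraries and none over the moderate libraries, so at least 973-fold higher under acute hypoxia, and at least 436-fold without acute library 3, with the moderate libraries set at 3 reads over the group (log2 difference 5.72, SE 0.60, adjusted p = 0.000705, a fitted value that depends on the added 1). All 6 acute and control libraries held reads of it and no moderate library did. It reached the mean of 1 TPM through the acute libraries alone, so its direction follows from that choice. Among 209 predicted miRNAs 55 were higher and 6 lower as deposited (26.3% higher and 2.87% lower, beside 28.6% and 7.87% of all entries), with a median of 0.37. Under the other scalings 19 to 30 higher and 13 to 19 lower passed, with 19 and 19 under the trimmed mean of M values, and the rises numbered 22 without acute library 2, 29 without acute library 3, 27 without moderate library 1 and 23 without moderate library 2. The predicted 19-nt sequence aATCAGTGatgggataact had 22.97, 18.9 and 24.9 TPM in the acute libraries, against 6.92, 3.09 and 3.88 TPM in the moderate libraries (log2 difference 2.10, SE 0.28, adjusted p = 0.00181). The control libraries had 14.98, 17.5 and 15.9 TPM. The predicted miRNA named in the title of the study is not analysed here.

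Some falls were tied to moderate libraries 1 and 2. For the falls of miR-486-x, miR-215-z, miR-10-x and miR-30-y given above, moderate library 3 lay near or between its partners. With moderate library 3 as the one moderate library, their log2 differences were −4.83, −1.73, −1.65 and −1.10. Whether moderate library 3 is independent of its partners is not known, so a tie to those libraries was not tested there. Entry miR-3966-z had 3.55, 4.50 and 4.21 TPM in the acute libraries, against 30.02, 27.8 and 6.05 TPM in the moderate libraries (log2 difference −1.86, SE 0.53, adjusted p = 0.0309). Its adjusted p was 0.0818 without acute library 1, 0.075 without acute library 2, 0.0947 without acute library 3, 0.0882 without moderate library 1 and 0.0748 without moderate library 2. The one imprinted-cluster entry that was called, miR-136-y, had 0.169, 0.118 and 0.114 TPM in the acute libraries, against 12.04, 16.1 and 0.424 TPM in the moderate libraries (log2 difference −2.59, SE 0.83, adjusted p = 0.0446), passed under 1 of the 4 other scalings, and had an adjusted p of 0.101 without acute library 1, 0.111 without acute library 2, 0.129 without acute library 3, 0.125 without moderate library 1 and 0.105 without moderate library 2. In both, moderate libraries 1 and 2 were high and moderate library 3 lay near the acute libraries. Entry miR-136-y reached the mean of 1 TPM through moderate libraries 1 and 2, so its direction follows from how entries were chosen. Without moderate library 3, all 10 tested entries of that cluster were called lower, and the falls numbered 55 (11.4% of those tested). Most of the 10 reached the mean of 1 TPM through moderate libraries 1 and 2. Their direction in that fit therefore follows from how the entries were chosen.

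**Figure D5:**
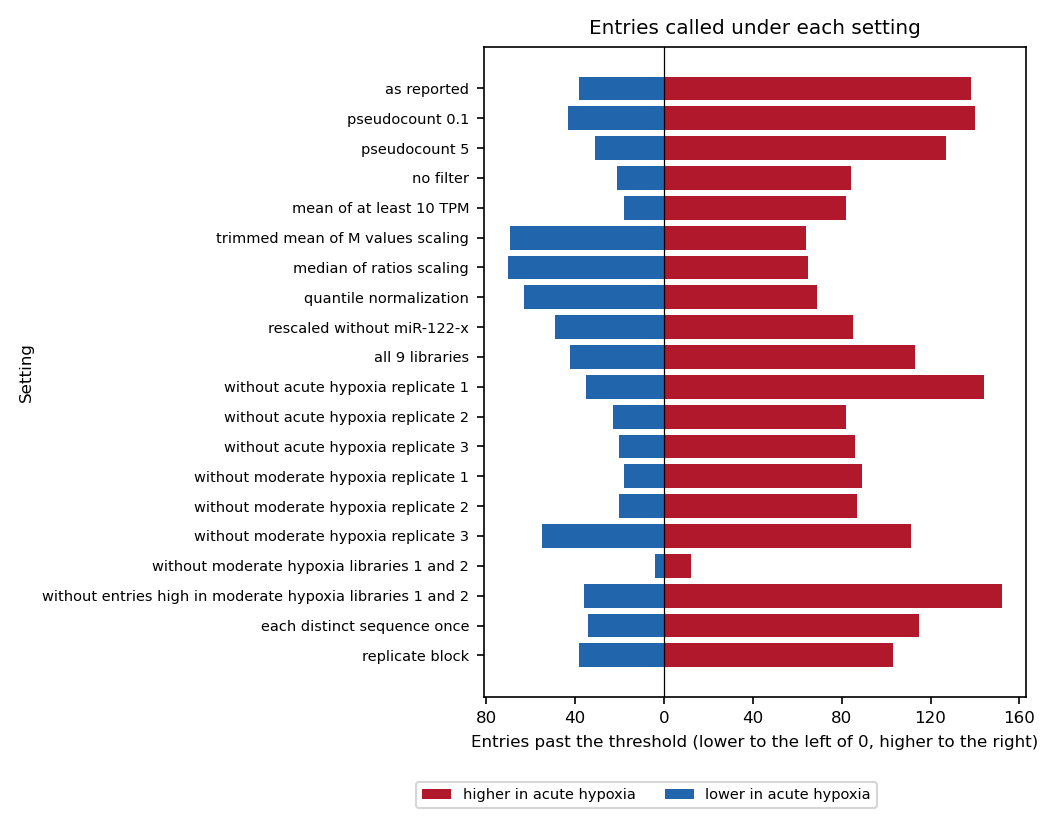
Number of entries called higher and lower under acute hypoxia in each setting of the fit. The rises range from 12 with moderate library 3 alone to 152 without entries high in moderate libraries 1 and 2, and under 3 scalings falls are about as many as rises.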

How the data were processed

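Small RNA of wild-type rainbow trout liver was measured by sequencing in 3 acute hypoxia, 3 moderate hypoxia and 3 control libraries, grouped by their treatment labels. Libraries were made from Trizol RNA with standard Illumina protocols, per the labels. The deposited values are a signal, named TPM per the file headers, in reads scaled to the library, with 0.01 for no read, read here as 0. The sources used here name no aligner, counter, prediction tool or genome build. Repeated sequences are counted under each of their names.

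Control values were set beside the comparison because the moderate hypoxia values of both tables are identical. In each library the low values step by whole reads (100% within 0.1 read), which gives its depth; 3 reads are 0.182 to 0.355 TPM, and such floors and intervals cover counting error only. The deposited fold changes and p-values were not used.

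The 483 entries that averaged 1 TPM or more (930 fell below) were fitted as log2(TPM + 1) by limma-trend (limma 3.58.1, R 4.3.3) on the 6 libraries, with Benjamini-Hochberg adjustment over all 483 at 0.05. Log2 differences are on that scale, which understates the change of low entries. Ratios of entries within a library are given without a test, and the interval of a ratio of reads is exact (scipy 1.17.1, Python 3.11.15). On simulated data for this comparison, with 473 entries and a dispersion of 0.046, the fit found 15.8% of 1.5-fold, 71.4% of 2-fold and 100% of 4-fold differences, and 2.31% of its calls were false. The simulation gave all entries and both groups that dispersion, drew rises and falls at equal odds and took the libraries as independent. The data had a median log2 difference of 0.32 and a median variation of 18.3% (acute) and 7.63% (moderate). These shares therefore need not hold for the data. Replicate numbers did not pair the libraries (correlations of the deviations 0.0298, 0.00223 and 0.0237), so no block was used.

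Named entries are, with 1 name per distinct sequence (the first by name, as entries of 1 sequence can carry different values): up to 12 rises and 12 falls among entries averaging 10 TPM or more whose groups are separate, the 10 most abundant, every miR-210, miR-462, miR-731, miR-122, miR-192, miR-194, miR-215, miR-451, miR-144, miR-486 and miR-459, and up to 4 called entries per list; not all are printed. Others are said to be named after their values were seen. The 26 lists match every entry of a miRNA number. The members, lists and rules were chosen with earlier results of these data known.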

Additional observations from a re-analysis of the deposited data

How the results depend on the processing

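The number of calls was 105 (84 higher, 21 lower) with no filter and 100 (82, 18) at a mean of at least 10 TPM, where 1413 and 201 entries were tested. Leaving out 1 library at a time gave 105 to 179 calls, 82 to 144 higher and 18 to 55 lower, and leaving out moderate libraries 1 and 2 gave 16 (12, 4), from 4 libraries. The scalings gave 64, 65, 69 and 85 higher and 69, 70, 63 and 49 lower, in the order trimmed mean of M values, median of ratios, quantile and without miR-122-x, and 100, 103, 104 and 121 of the 176 calls were shared. Pseudocounts of 0.1 and 5 (183 and 158 calls), all 9 libraries (155) and each distinct sequence once (149 of 401) moved the count by less than 1.5 times. The replicate number as a block gave 141 calls (103, 38); same-numbered libraries did not deviate together, and not every library correlated best with its own number. Log2 differences of some of the 82 named entries changed sign, and only sign changes of named entries are listed here. Under the trimmed mean of M values these were miR-122-y (−0.35), miR-192-y (−0.018), miR-192-z (−0.28), miR-451-y (−0.078) and miR-462-x (−0.42). Under the median of ratios these were miR-122-y (−0.33), miR-192-z (−0.27), miR-451-y (−0.060) and miR-462-x (−0.40). Rescaled without miR-122-x these were miR-122-y (−0.15), miR-192-z (−0.086) and miR-462-x (−0.22). Under quantile normalization these were miR-181-y (−0.067), miR-192-y (−0.13), miR-192-z (−0.39), miR-451-y (−0.21) and miR-462-x (−0.11). Without moderate libraries 1 and 2 these were miR-462-x (−0.016) and miR-462-y (−0.00048). Without 1 library at a time they were miR-100-x (−0.47 to 0.20), miR-122-y (−0.24 to 0.61), miR-210-x (−0.25 to 0.013), miR-451-y (−0.022 to 0.58), miR-459-y (−0.27 to 0.046) and miR-462-x (−0.034 to 0.041). Of these, miR-181-y had been called. Over all 176 calls, named or not, 2 changed sign under quantile normalization and 0 under each other setting. Over the 82 named entries and all settings, 1215 values kept direction and side of the threshold, 295 fell short of it, 7 newly passed and 29 changed sign; the cause was not tested. Count models on the recovered reads were planned and not run. Depth limits entries near 1 TPM, where a library holds a few reads above the 3-read floor. In the simulation 1.5-fold differences were mostly not found with 3 libraries a group.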

Other observations

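Several entries differed throughout, under all 4 scalings and without each library, and are named here after their values were seen. Entry miR-338-y had 259, 305 and 247 TPM in the acute libraries, against 92.4, 97.5 and 94.6 TPM in the moderate libraries (log2 difference 1.496, SE 0.16, adjusted p = 0.000706, limma). For miR-338-y the control libraries had 279, 241 and 154 TPM. Entry miR-21-y, which belongs to the hypoxia list and is an entry of a miRNA known for growth and fibrosis in mammals, had 401, 547 and 494 TPM in the acute libraries, against 231, 172 and 194 TPM in the moderate libraries (log2 difference 1.27, SE 0.19, adjusted p = 0.00357). The more abundant miR-21-x and miR-21-z, with another seed, were not called (log2 differences −0.04 and 0.39). Their means summed to 13847 TPM under acute hypoxia, against 10613 TPM under moderate hypoxia. Entry miR-3618-y had 5.24, 13.9 and 7.06 TPM in the acute libraries, against 0.719, 1.55 and 1.21 TPM in the moderate libraries (log2 difference 2.09, SE 0.35, adjusted p = 0.00432). For miR-3618-y the control libraries had 4.74, 4.68 and 1.76 TPM. In these 3 every acute value was above every moderate value. Lower throughout was miR-5119-z, the one 18-nt entry that fell, with 1.27, 3.08 and 5.81 TPM in the acute libraries, against 18.3, 10.7 and 15.02 TPM in the moderate libraries (log2 difference −1.95, SE 0.40, adjusted p = 0.00953). For miR-5119-z the control libraries had 0.290, 2.14 and 3.86 TPM. Entry miR-423-x was lower as well, with 0.422, 0.237 and 0.569 TPM in the acute libraries, against 6.20, 6.32 and 2.42 TPM in the moderate libraries (log2 difference −2.01, SE 0.33, adjusted p = 0.00402). It reached the mean of 1 TPM through the moderate libraries, so its direction follows from how entries were chosen.

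Entries that share a seed did not always move together. The seed AGTGCAA was held by miR-130-y, miR-301-y and miR-454-y, of which 2 rose, with log2 differences of 0.10 to 1.45 over the 3. The seed GCTACAT of miR-221 and miR-222 was held by 4 sequences, of which 2 fell and none rose (−1.31 to 0.41). Of those 2, miR-222-z reached the mean of 1 TPM through the moderate libraries, so its direction follows from how entries were chosen. The seed GAGGTAG of let-7 was held by 5 sequences, of which 1 fell and none rose (−0.74 to 0.69). The seed CAGTGCA of miR-148 and miR-152 was held by 4 sequences with no call either way (−0.41 to 0.31; background 36.4% called).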
